A study of Arabidopsis thaliana with 12 samples.

Results

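A set of 10 Arabidopsis genes of indole glucosinolate metabolism and its neighbouring branch were followed: the MYB regulators MYB34, MYB51 and MYB122, the tryptophan-oxidising enzyme gene CYP79B2, the ring-modifying genes CYP81F2, IGMT1, IGMT2, IGMT3 and IGMT4, and CYP82C2. They are 10 of the 26702 genes in the deposited file, and all 10 were found by locus identifier. The set was drawn up with normalised values and calls over the same 4 groups already known, so the values of these 10 genes are a description and no count over them is evidence. All 10 also passed the filter on low values described below, CYP82C2 only through its libraries with CHX.

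Messenger RNA was sequenced after poly(A) enrichment from Arabidopsis thaliana seedlings, labelled as shoot and collected 3 days post germination. Every sample, mock included, carried the genotype clv3 epfl1 epfl2 epfl4 epfl6, a line with mutations in the stem cell peptide gene CLV3 and in EPFL peptide genes. The 4 groups were mock (buffer), EPFL6 (a secreted peptide recognised by ERECTA-family receptor kinases), cycloheximide (CHX, a blocker of translation) and CHX plus EPFL6, with 3 biological replicates each. Each replicate pooled 10 seedlings in 1 ml of liquid medium, EPFL6 was 8.7 µl of a 10 µM solution (86.2 nM in the medium, computed here), and the CHX, at 10 µM, preceded it by 10 minutes. How long the seedlings stood with EPFL6 before collection is not stated in the labels. The design asks which transcripts answer EPFL6, and which of those answers are still seen when translation is blocked.

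Libraries held 40.2 to 106.6 M reads assigned to genes. The CHX libraries were deeper, at 93.9 ± 11.2 M reads (SD, n = 3) against 51.4 ± 4.74 M reads in mock, and depth therefore moved together with CHX. Values below are normalised reads, that is reads divided by the size factor of the library. Scaling by library size alone moved the median of all genes from 0.02 to −0.73 (log2) in the contrast of CHX with mock, so CHX changes are relative to the scaling used. Markers of root tissue had reads in every library (5 of 5 genes), with a summed level of 5933 to 7380 in mock, 6881 to 7922 with EPFL6, 2173 to 2266 with CHX and 1808 to 2013 with both. Summed shoot markers (3 of 3 with reads in every library) ran from 349283 to 657104 in mock and from 352961 to 643470 with EPFL6. Their sum was also lower with CHX, at 210601 to 311486, and ran from 231827 to 381414 with both. The shoot meristem marker STM went from 1009.7 ± 40.6 in mock to 521 ± 70.6 with CHX and 103 ± 36.2 with both. RBCS1A went from 429477 ± 115815 to 220993 ± 42537 and 259617 ± 58531 in the same groups. LHCB1.1 overlapped between mock (22195 to 101470) and CHX (32533 to 48380), with a mean of 52770 with both. The root markers PRP3 at 2171 ± 463 and CASP1 at 1256 ± 197 in mock were not near 0, though the tissue is labelled shoot, and removal of roots is not stated. With CHX, PRP3 stood at 63.4 ± 42.8 and CASP1 at 21.9 ± 6.22. The other root markers fell less, SCR from 2240 ± 48.4 to 1265 ± 75.5 and SHR from 1055 ± 97.5 to 812 ± 25.3. WOX5 went from 74.0 ± 18.3 to 63.1 ± 14.8. The phloem marker SUC2 went the other way, at 7018 to 7909 in mock and 14447 to 15648 with CHX, while the summed guard and myrosin cell markers (3 of 3 with reads in every library) ran from 70219 to 82911 in mock and from 73232 to 74045 with CHX. The part of these shifts in the changes below was not tested, and in tissue of many cell types fewer cells of a type and less RNA per cell cannot be told apart.

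Indole glucosinolates are sulfur-containing defence compounds of Arabidopsis and its relatives, made from tryptophan. CYP79B2 and its paralog CYP79B3 turn tryptophan into indole-3-acetaldoxime, a set of core enzymes builds the parent glucosinolate from it, CYP81F enzymes hydroxylate the indole ring, and the indole glucosinolate methyltransferases (IGMTs) methylate that hydroxyl group. MYB34, MYB51 and MYB122 are the transcription factors known to switch on the pathway. The same aldoxime feeds camalexin, an antimicrobial compound, and a cyanogenic branch in which CYP82C2 acts as a hydroxylase.

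The 4 IGMT genes lie side by side on the minus strand of chromosome 1, and their likeness bears on how reads were assigned to them. In the TAIR10.1 annotation IGMT1 (AT1G21100) spans chr1:7386762-7388512, IGMT3 (AT1G21110) chr1:7389981-7391603, IGMT2 (AT1G21120) chr1:7395179-7396823 and IGMT4 (AT1G21130) chr1:7398814-7400736, each with 3 exons. Over the 1122 gap-free coding positions of all 4, 125 (11.1%) differed in at least 1 gene, and pairwise identity over these positions ran from 92.5% for IGMT2 with IGMT1 or IGMT4 to 97.4% for IGMT2 with IGMT3. The start of the shared coding sequence shows how the copies differ. These are coding bases 1 to 90 of IGMT1, IGMT3 and IGMT4 and 145 to 234 of IGMT2, whose annotated coding sequence begins earlier, with the 7 positions that vary among the copies in capitals.
IGMT1: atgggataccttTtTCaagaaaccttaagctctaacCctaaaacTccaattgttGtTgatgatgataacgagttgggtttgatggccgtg
IGMT2: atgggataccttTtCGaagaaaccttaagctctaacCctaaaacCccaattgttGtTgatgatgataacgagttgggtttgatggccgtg
IGMT3: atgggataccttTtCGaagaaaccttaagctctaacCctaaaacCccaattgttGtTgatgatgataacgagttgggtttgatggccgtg
IGMT4: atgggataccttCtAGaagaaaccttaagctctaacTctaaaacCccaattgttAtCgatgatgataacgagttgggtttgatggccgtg
IGMT2 and IGMT3 are identical over this stretch. Of the windows of 50 bases in each spliced transcript, 12.1% of IGMT1, 35.4% of IGMT2, 42.6% of IGMT3 and 10.0% of IGMT4 occurred unchanged in another IGMT gene. With windows of 100 bases the shares were 3.46%, 21.4%, 22.1% and 3.89%. The read length and the handling of reads with several matches are not given in the sources used here, so the split between IGMT2 and IGMT3 in particular is uncertain.

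The 250 bases before the annotated start are shown for the IGMT genes, CYP82C2 and CYP82C3, a paralog of CYP82C2. They are from RefSeq TAIR10.1, read 5′ to 3′ on the gene's strand. Capitals mark TTGAC or its reverse complement GTCAA, the core of the W-box that WRKY transcription factors bind, searched on both strands. The windows are chr1:7388513-7388762 (minus strand) for IGMT1, chr1:7396824-7397073 (minus) for IGMT2, chr1:7391604-7391853 (minus) for IGMT3 and chr1:7400737-7400986 (minus) for IGMT4. CYP82C2 (AT4G31970, chr4:15462350-15464563, plus strand, 3 exons) has the window chr4:15462100-15462349, and its neighbouring paralog CYP82C3 (AT4G31950) chr4:15454833-15455082, both on the plus strand.
IGMT1: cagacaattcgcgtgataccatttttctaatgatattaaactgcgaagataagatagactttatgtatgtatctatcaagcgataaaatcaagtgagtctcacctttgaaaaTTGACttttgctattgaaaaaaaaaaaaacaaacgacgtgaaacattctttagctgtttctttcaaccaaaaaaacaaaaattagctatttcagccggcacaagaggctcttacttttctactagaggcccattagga
IGMT2: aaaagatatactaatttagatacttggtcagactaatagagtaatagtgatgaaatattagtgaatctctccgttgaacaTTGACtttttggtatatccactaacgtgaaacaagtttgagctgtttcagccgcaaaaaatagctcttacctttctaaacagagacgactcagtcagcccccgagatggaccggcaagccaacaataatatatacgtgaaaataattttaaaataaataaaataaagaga
IGMT3: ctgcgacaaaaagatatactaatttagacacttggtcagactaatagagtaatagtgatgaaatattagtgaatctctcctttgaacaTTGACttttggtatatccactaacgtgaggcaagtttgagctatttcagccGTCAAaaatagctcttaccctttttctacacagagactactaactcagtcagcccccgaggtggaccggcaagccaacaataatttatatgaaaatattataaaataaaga
IGMT4: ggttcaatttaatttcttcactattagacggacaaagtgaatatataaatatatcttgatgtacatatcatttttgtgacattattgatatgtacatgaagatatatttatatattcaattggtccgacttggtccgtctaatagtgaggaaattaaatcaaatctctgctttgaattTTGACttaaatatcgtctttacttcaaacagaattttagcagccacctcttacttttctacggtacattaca
CYP82C2: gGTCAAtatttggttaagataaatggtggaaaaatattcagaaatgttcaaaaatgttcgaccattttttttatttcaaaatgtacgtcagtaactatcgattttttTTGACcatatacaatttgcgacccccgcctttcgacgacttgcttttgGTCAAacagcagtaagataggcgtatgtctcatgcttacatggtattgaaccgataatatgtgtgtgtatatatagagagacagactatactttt
CYP82C3: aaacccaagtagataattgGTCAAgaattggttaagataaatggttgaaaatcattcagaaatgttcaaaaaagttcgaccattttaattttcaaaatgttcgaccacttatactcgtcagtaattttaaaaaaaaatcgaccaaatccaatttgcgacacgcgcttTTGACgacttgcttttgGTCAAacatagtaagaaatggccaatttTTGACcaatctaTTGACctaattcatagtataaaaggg
The core occurred once in IGMT1, IGMT2 and IGMT4, 2 times in IGMT3, 3 times in CYP82C2 and 5 times in CYP82C3. Of the other genes, whose windows are not printed, MYB51 and CYP81F2 had 2 matches each and MYB34, MYB122 and CYP79B2 had 0. MYB51, CYP81F2, MYB122 and CYP79B2 also rose with CHX, as did 40.9% of all genes tested. A link between matches and the CHX changes was not tested. In all, 7 of the 10 genes had at least 1 match, beside 44.9% of 27443 promoters of the same length, and 14.1% of those promoters had at least 2. The G-box CACGTG, also searched on both strands, was in 0 of the 10 windows and in 6.49% of all promoters. A match is only a match of letters.

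MYB51, MYB122 and MYB34, the 3 regulators, did not move alike. MYB51 (AT1G18570, chr1:6389399-6391386, plus strand) held 1574, 1161 and 2205 in the mock libraries and 1389.5, 1336 and 2085 with EPFL6. With CHX it held 48690.3, 55346 and 53915, and with both agents 57487, 67822 and 71907. Every CHX library was far above every library without CHX, while mock and EPFL6 overlapped. The MYB51 libraries with both agents lay above those with CHX alone. MYB122 (AT1G74080, chr1:27855578-27857598, plus strand) was scarcer, holding 69.9, 55.7 and 135 without either agent and 75.0, 38.2 and 121 with EPFL6. It stood at 889, 882 and 809 with CHX and 1554, 1796 and 2362 with both, so the libraries with both agents lay above those with CHX alone.

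MYB34 (AT5G60890, chr5:24494291-24496371, plus strand) went the other way. It held 1767, 1707 and 2153 in mock, 1656, 1522 and 1755 with EPFL6, 867, 859.6 and 1075 with CHX and 709, 469 and 497 with both. The 3 CHX libraries were below all libraries without CHX, and the 3 with both agents were below the CHX libraries. The fitted log2 fold change for CHX against mock was 5.05 ± 0.22 (SE) for MYB51, 3.40 ± 0.39 for MYB122 and −1.01 ± 0.16 for MYB34. For CHX plus EPFL6 against CHX it was −0.76 ± 0.16 for MYB34, 1.13 ± 0.39 for MYB122 and 0.32 ± 0.22 for MYB51, and of these MYB34 alone passed the threshold of an adjusted p of 0.05 in limma over all 23225 genes tested. MYB34 missed it without CHX replicate 3 (0.058) or CHX plus EPFL6 replicate 3 (0.053). MYB122 missed it here (adjusted p = 0.081 in limma) and passed in 5 of 22 alternatives, among them edgeR (0.039), DESeq2 (0.012) and the fit without EPFL6 replicate 2 (0.042), over a range of 0.012 to 0.21.

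CYP79B2 (AT4G39950, chr4:18525042-18527602, plus strand), which opens the pathway from tryptophan, held 6117, 4001 and 7784 in mock and 4597, 4733 and 6361 with EPFL6. It held 48078, 46118 and 71564 with CHX and 47648, 45842 and 45708 with both agents. The groups separated by CHX and overlapped for EPFL6 at either level of CHX. The log2 fold change was 3.23 ± 0.24 for CHX against mock and −0.22 ± 0.24 for CHX plus EPFL6 against CHX. Its paralog CYP79B3 (AT2G22330), whose coding sequence is 80.8% identical over aligned positions without gaps, held 4435, 4059 and 4588 in mock and 3074, 1409 and 3696 with CHX. CYP79B3 fell by 0.79 ± 0.32 (limma adjusted p = 0.041) where CYP79B2 was higher. The CYP79B3 call passed in 13 of 22 alternatives, with adjusted p from 0.00089 to 0.16, and was lost without any single mock replicate (0.085, 0.062 and 0.087), EPFL6 replicate 1 (0.053) or 2 (0.051), the second CHX replicate (0.16) or the third with both agents (0.051), in edgeR (0.058) and in the fit of mock and CHX libraries alone (0.067).

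**Figure D1:**
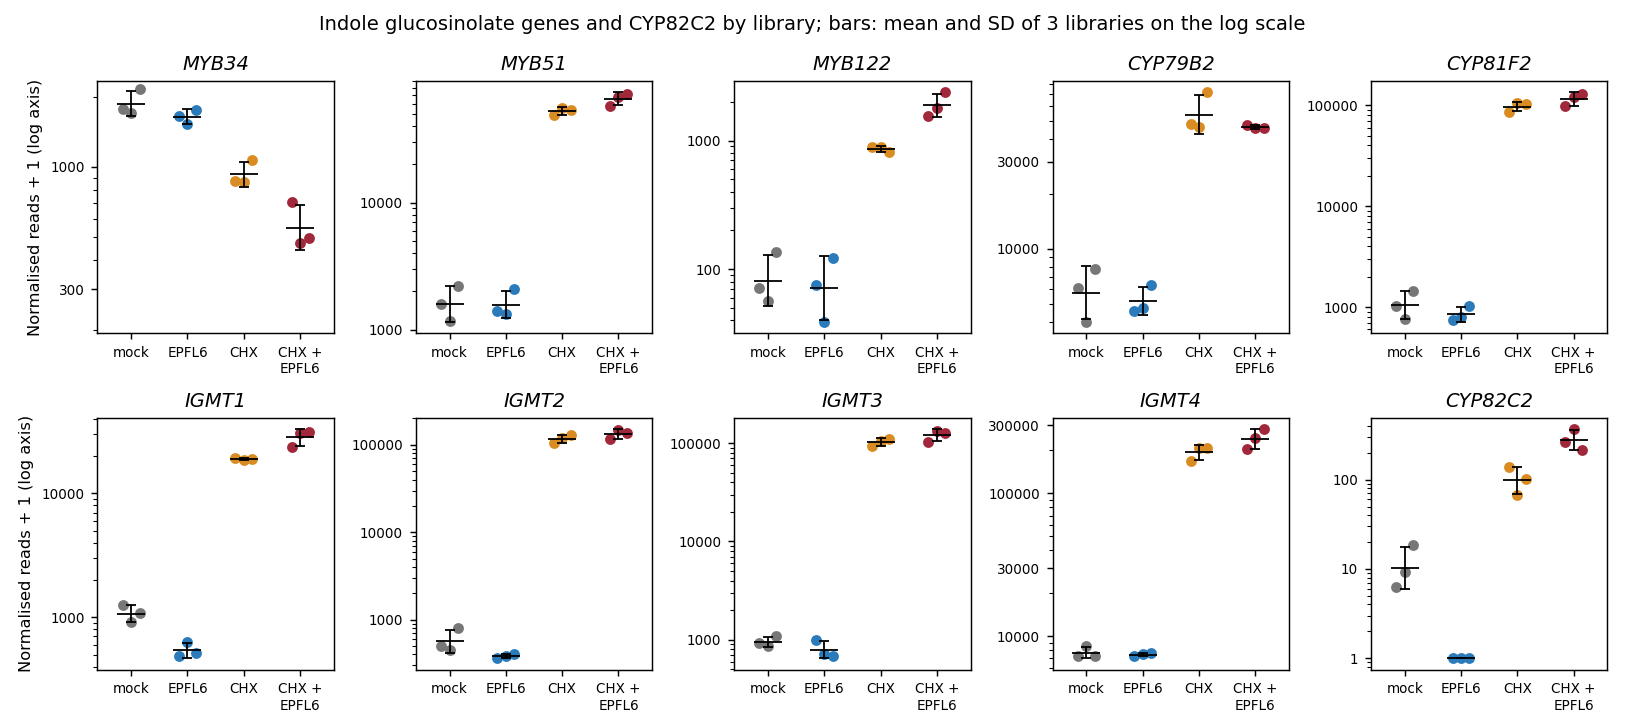
Normalised reads plus 1 in each of the 12 libraries (y axes, logarithmic, each with its own range) for each of the 10 genes, by group. Points are libraries, and bars are the mean and SD of 3 libraries on the log scale. In 9 of the 10 panels the CHX groups sit above the groups without CHX, in the MYB34 panel they sit below, and the 3 EPFL6 points of CYP82C2 sit at 1 because they hold 0 reads.

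CYP81F2 (AT5G57220, chr5:23187840-23189902, plus strand), which hydroxylates the indole ring, held 1033, 756 and 1444 in mock and 742, 800.0 and 1022 with EPFL6. With CHX it held 85654, 104321 and 102055, and with both agents 97458, 121693 and 129320.0. All CHX libraries exceeded all others, a log2 fold change of 6.54 ± 0.21 or 93.1-fold for CHX against mock, and within each CHX level the EPFL6 groups overlapped. Of the other hydroxylase genes of this step, CYP81F3 (AT4G37400) rose with CHX by 2.94 ± 0.24 (limma adjusted p = 6.5e-07), and CYP81F4 (AT4G37410) had 0.21 ± 0.59 (adjusted p = 0.75). CYP81F1 was not analysed here.

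IGMT2, IGMT3 and IGMT4 followed CHX and differed little with EPFL6. IGMT2 held 502, 451 and 793 in mock, 361, 385 and 408 with EPFL6, 104206, 120566 and 128861 with CHX and 115578, 147302 and 138094 with both. IGMT3 held 918, 869 and 1094 in mock, 990.3, 723 and 686 with EPFL6, 92879, 104892 and 110142 with CHX and 103703, 133686 and 127663 with both. IGMT4 held 7259, 8459 and 7246 in mock, 7189, 7443 and 7556 with EPFL6, 169359, 209555 and 208641 with CHX and 205061, 242761 and 280938 with both. For these 3 genes the CHX libraries lay far above the rest and those with and without EPFL6 overlapped among the CHX libraries. Without CHX, IGMT2 was lower in every EPFL6 library than in any mock library, by −0.55 ± 0.18, which did not pass over all genes and came to −0.31 without mock replicate 3. CHX against mock gave log2 fold changes of 7.70 ± 0.18 for IGMT2, 6.74 ± 0.15 for IGMT3 and 4.67 ± 0.13 for IGMT4, or 208-fold, 107-fold and 25.5-fold.

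IGMT1 was the methyltransferase gene whose EPFL6 groups did not overlap with or without CHX. It held 1245, 908 and 1082 in mock and 482, 635 and 511 with EPFL6. Every EPFL6 library lay below every mock library, a log2 fold change of −0.99 ± 0.14 that did not pass in limma (adjusted p = 0.096) and passed in DESeq2 (8.9e-07), the 1 of 22 alternatives in which it did. With CHX it held 19394, 18465 and 18835, and with both agents 23728, 30499 and 31217, so under CHX the libraries given EPFL6 were the higher ones. CHX against mock gave 4.14 ± 0.14 or 17.6-fold, CHX plus EPFL6 against CHX gave 0.58 ± 0.14, and the difference between the EPFL6 changes with and without CHX, the interaction, was 1.57 ± 0.20. The second of these calls was lost without CHX replicate 2 (adjusted p = 0.068) or 3 (0.079) and without CHX plus EPFL6 replicate 2 (0.081) or 3 (0.085), and the interaction passed in every alternative it was run in. IGMT5 (AT1G76790), a further gene of the family that lies outside the cluster, had −0.41 ± 0.55 for EPFL6 against mock and −0.79 ± 0.55 for CHX against mock, with neither past the threshold.

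The make-up of the IGMT cluster shifted with CHX. Per kilobase of exon, IGMT4 supplied 70.2 ± 4.70% of the reads of the 4 genes in mock, 77.5 ± 1.64% with EPFL6, 39.3 ± 1.12% with CHX and 40.4 ± 2.35% with both (SD, n = 3). The IGMT2 share was 6.72 ± 2.13%, 5.07 ± 0.291%, 29.8 ± 0.532% and 28 ± 1.37%. The IGMT3 share was 11.3 ± 1.45%, 10.7 ± 2.29%, 26.4 ± 0.463% and 25.9 ± 0.993%. IGMT2 and IGMT3 thus gained share with CHX as IGMT4 lost it, and their ranges with and without CHX did not overlap. The IGMT1 share was 11.8 ± 2.20% in mock, 6.74 ± 0.970% with EPFL6, 4.54 ± 0.574% with CHX and 5.62 ± 0.0998% with both. IGMT1 shares ranged from 9.60% to 14.0% in mock and from 6.03% to 7.84% with EPFL6, and from 4.19% to 5.20% with CHX and 5.51% to 5.70% with both, so EPFL6 went with a lower share without CHX and a higher one with it. Reads that match several copies can move these shares.

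**Figure D2:**
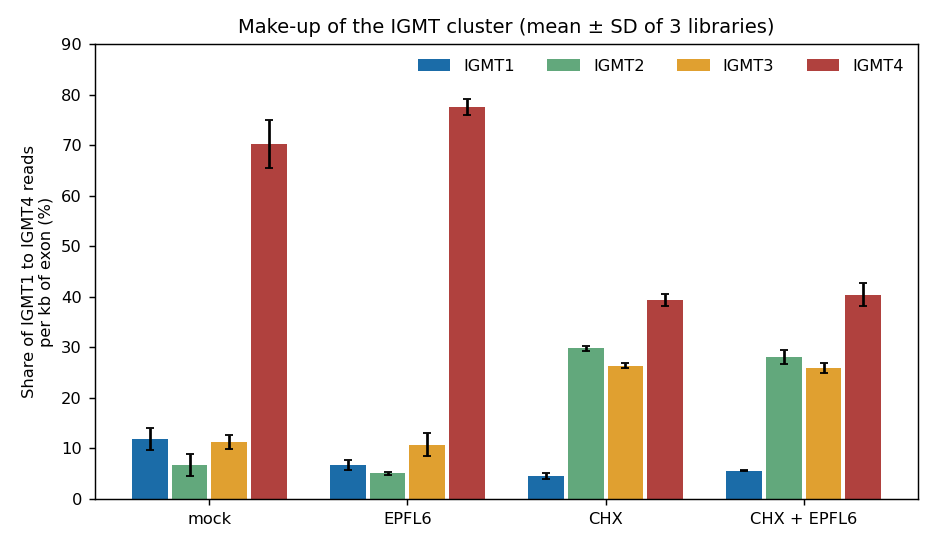
Share of the reads per kilobase of exon of IGMT1 to IGMT4 (y axis, percent) taken by each gene in the 4 groups. Bars are means and error bars SDs of 3 libraries. IGMT4 falls from 70.2% in mock to 39.3% with CHX while IGMT2 goes from 6.72% to 29.8%, and IGMT1 goes from 11.8% in mock to 6.74% with EPFL6.

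CYP82C2 was the lowest of the 10 genes in every group. It held 5.30, 8.35 and 17.3 normalised reads in mock and 0, 0 and 0 with EPFL6, or 31 reads over the 3 mock libraries and 0 over the 3 EPFL6 libraries. With CHX it held 136, 67.1 and 99.4 (332 reads in all) and with both agents 263, 366 and 216 (850 reads). No 2 of the 4 groups overlapped, with EPFL6 lowest, then mock, CHX, and CHX plus EPFL6 highest. A count of 0 was taken to allow up to 3 reads over the group. Against that limit the measured level was 10.0-fold higher in mock, 98.9-fold with CHX and 279-fold with both agents. These folds allow for counting error in the EPFL6 group only. The counting error and spread of the other group, 5.30 to 17.3 in mock, are left out, and reads are not marked by molecule.

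Fitted changes of CYP82C2 across the EPFL6 group depend on the pseudocount and are no bounds. The gene passed the filter on low values only through the libraries with CHX. Its EPFL6 libraries, all at 0, add no spread to the SE. With a pseudocount of 1 the log2 fold change of EPFL6 against mock was −3.36 ± 0.38, past the threshold in limma (adjusted p = 0.025), and it was −5.24 with a pseudocount of 0.25, −1.14 with 8, −6.41 in edgeR and −5.75 in DESeq2. That call passed in 11 of 22 alternatives (adjusted p 0.0023 to 0.95). Besides a fit with a replicate term, whose value stands in the closing section, it was lost in edgeR (0.71), with a pseudocount of 8 (0.95), in the fit of mock and EPFL6 libraries alone (0.76), without EPFL6 replicate 1 (0.10), 2 (0.11) or 3 (0.12), and when mock replicate 2 (0.068), CHX replicate 3 (0.066), or replicate 1 (0.059) or 2 (0.054) with both agents was left out. CHX against mock gave 3.25 ± 0.38, and CHX plus EPFL6 against CHX gave 1.5 ± 0.38 or 2.82-fold. The latter was lost without CHX replicate 2 (adjusted p = 0.097) or 3 (0.090), or without CHX plus EPFL6 replicate 1 (0.062), 2 (0.10) or 3 (0.057). The interaction was 4.86 ± 0.54 and passed in every alternative it was run in, with values from 2.57 with a pseudocount of 8 to 7.88 in edgeR.

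The neighbouring paralogs of CYP82C2 were read beside it. CYP82C3, 93.1% identical in coding sequence over aligned positions without gaps, held 29.7, 28.8 and 54.0 in mock and 36.9, 39.0 and 28.8 with EPFL6, which overlapped. It rose to 16730.0, 25129 and 36901 with CHX, a log2 change of 9.40 ± 0.29 (limma adjusted p = 2.5e-10), and held 21885, 21641 and 17353 with both agents. CYP82C4 (AT4G31940), 93.0% identical, held 769, 1014 and 2463 in mock and 2211, 757 and 2087 with EPFL6, and its rise with CHX was 1.57 ± 0.50 (adjusted p = 0.013). It missed the threshold without mock replicate 1 (0.059) or CHX replicate 1 (0.058) and with library size alone as the scaling (0.82, adjusted p = 0.15). Neither paralog passed for EPFL6 at either level of CHX. Of the windows of 50 bases in the CYP82C2 transcript, 6.72% occurred unchanged in CYP82C3 or CYP82C4, and of those of 100 bases 0. CYP82C3 held 86700 reads over the CHX libraries and CYP82C2 332, and with both agents they held 59990 and 850. Whether reads of these copies entered the CYP82C2 values with CHX was not tested.

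**Figure D3:**
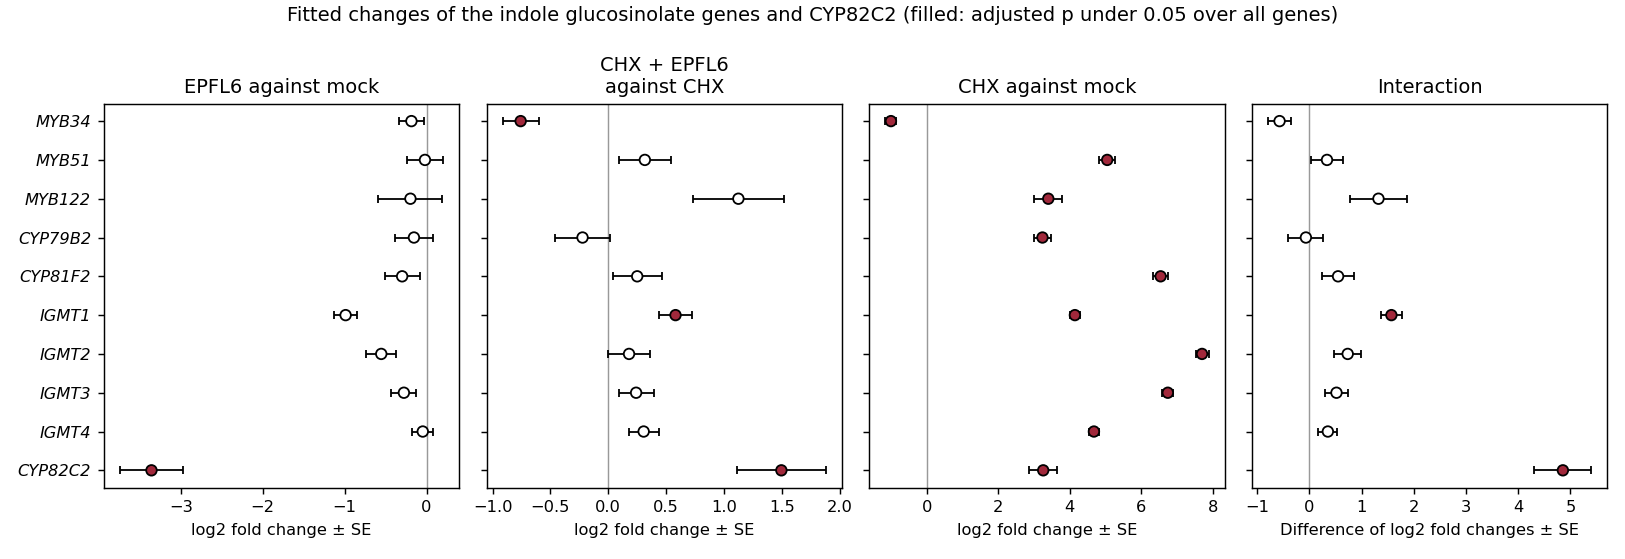
Fitted log2 fold changes ± SE (x axes, each with its own range) of the 10 genes in 4 panels: EPFL6 alone, EPFL6 added to CHX, CHX alone, and the interaction. Filled points passed an adjusted p of 0.05 over all 23225 genes in limma, and lines at 0 mark no change. CHX against mock is positive for 9 genes and −1.01 for MYB34, and the interaction points of IGMT1 (1.57) and CYP82C2 (4.86) are filled.

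Counts over the 10 genes are given with those over all genes, and since the genes were selected on these groups nothing is read from them. For EPFL6 against mock 1 was called, lower, where 0.0172% of all genes tested were called in either direction, and in 3 of the 10 the mock and EPFL6 libraries did not overlap, beside 6.78% of all genes tested. For CHX against mock 9 were called higher and 1 lower, where 40.9% of all genes were called higher and 38.3% lower. When EPFL6 was added to CHX 2 were called higher and 1 lower, beside 5.89% and 7.63%. With both agents against EPFL6 alone 9 were called higher and 1 lower, beside 40.2% and 37.7%. For the interaction 2 were called higher and 0 lower, beside 0.366% and 1.14%. The 10 log2 fold changes ran from −3.36 (CYP82C2) to −0.02 (MYB51) for EPFL6 against mock. With both agents against EPFL6 alone MYB34 stood at −1.58 ± 0.16 and the other 9 from 3.16 ± 0.24 (CYP79B2) to 8.43 ± 0.18 (IGMT2). The medians of the 10 log2 fold changes were −0.24, 4.41, 0.28, 5.55 and 0.53 in the same order, where those of all genes were 0.0023, 0.020, 0.0038, 0.026 and 0.0031. With library size alone as the scaling, 5634 genes were called higher and 14464 lower for CHX against mock, in place of 9491 and 8895, and the counts of the 10 genes were as above.

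Levels per kilobase of exon put the 10 genes in an order that CHX changed. In mock, IGMT4 led with 4178 ± 380.3 normalised reads per kilobase, followed by CYP79B2 (2792 ± 887) and MYB34 (1056 ± 136). MYB51, IGMT1, IGMT3, CYP81F2 and IGMT2 came next, from 923 ± 295 down to 399 ± 127, and from MYB34 to IGMT2 each neighbouring pair overlapped within 1 SD. MYB122 (55.5 ± 26.9) and CYP82C2 (5.63 ± 3.41) closed the order, clear of their neighbours. With EPFL6 the first 4 places were the same, IGMT1 had moved 2 places down, to 351 ± 52.7, and neighbours from MYB34 to IGMT1 overlapped within 1 SD.

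With CHX, IGMT4 still led at 106906 ± 12526, and IGMT2 (80904 ± 8611) and IGMT3 (71525 ± 6167), which overlapped, followed. CYP81F2 (55058 ± 5761) came next, and MYB51 (29496 ± 1963) and CYP79B2 (25855 ± 6626) overlapped below it. IGMT1 followed at 12232 ± 303, then MYB122 (551 ± 28.2) and MYB34 (525 ± 68.7), which overlapped, and CYP82C2 (55.0 ± 18.8). The order with both agents was the same. There, IGMT2 (91735 ± 11202), IGMT3 (84797 ± 11053) and CYP81F2 (65699.8 ± 9409.9) overlapped as neighbours, while MYB122 (1219 ± 265) and MYB34 (314 ± 73.7) no longer did.

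The rest of the pathway gave a set of genes named from pathway knowledge, though with earlier results of these data known. Of 51 such genes, MYC2 and CYP81F1 were not analysed here and 49 were tested. None passed for EPFL6 against mock in limma, edgeR or DESeq2, and their median log2 fold change was −0.04. In limma 1 had an unadjusted p under 0.05, beside 708 of all 23225 genes. For CHX against mock 25 rose and 10 fell, with a median of 0.78, and with library size alone as the scaling 18 rose and 22 fell. Over all genes 40.9% were called higher and 38.3% lower in that comparison, or 24.3% and 62.3% with library size alone.

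By role, 9 of 12 genes of camalexin and the cyanogenic branch rose with CHX and 2 fell, with a median of 2.16. All genes gave 40.9% higher and 38.3% lower. With library size alone as the scaling 6 rose and 2 fell, where all genes gave 24.3% and 62.3%. Besides CYP82C3, the berberine-type oxidase gene AT1G26380 rose from 379, 169.8 and 469 to 66317, 84806 and 91999, a log2 change of 8.01 ± 0.32 (limma adjusted p = 1.9e-09). CYP71A12, which dehydrates indole-3-acetaldoxime, rose by 6.53 ± 0.65 (adjusted p = 2.9e-06). Reads of CYP71A12 and of the nitrilase genes could be split with similar copies (CYP71A13, NIT1 to NIT3). NIT2 fell by 1.15 ± 0.22 (adjusted p = 0.00052). Of 5 tested regulators 2 rose and 0 fell, or 2 and 3 with library size alone, beside the same shares of all genes. The count that rose in the main fit lies near the background of 40.9%. MYC3 rose by 1.18 ± 0.05 and WRKY33, a regulator of camalexin genes, by 7.06 ± 0.29 (adjusted p = 2.3e-09). WRKY33 held 3216, 2142 and 4643 in mock and 391128, 437248 and 447665 with CHX, and its annotation overlaps AT2G08965 and AT2G38480, whose reads could be shared. PYK10, IQD1, BCAT4, CYP81F4 and IGMT5 also overlap other annotated genes.

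Of 11 genes of core synthesis other than CYP79B2, 4 rose and 4 fell with CHX, near the shares of all genes (40.9% and 38.3%), with a median of −0.37. With library size alone as the scaling 2 rose and 7 fell. The glutathione transferase gene GSTF9 fell by 2.7 ± 0.17 (limma adjusted p = 7.7e-08), and SUR1, the C-S lyase gene, fell by 0.41 ± 0.16 (adjusted p = 0.035). The SUR1 call was lost without mock replicate 1 (0.074) or 3 (0.15), without CHX replicate 1 (0.078) or 2 (0.12), and in the fit of mock and CHX libraries alone (0.065). CYP83B1, which oxidises the aldoxime, had −0.37 ± 0.24 (adjusted p = 0.18) and the sulfotransferase gene SOT16 −0.59 ± 0.25 (adjusted p = 0.050, above the threshold before rounding), and SOT16 passed in 11 of 22 alternatives. Of 7 tryptophan supply genes 4 rose and 1 fell, with a median of 1.1, or 3 and 3 with library size alone. Of 11 genes of breakdown and transport 5 rose and 3 fell, or 4 and 6 with library size alone, beside the same shares of all genes. There the nitrile specifier gene NSP5 fell by 2.80 ± 0.25 and the beta-glucosidase gene PYK10 fell by 1.72 ± 0.19 (adjusted p = 1.2e-06 and 5.7e-06). PEN2, the myrosinase that acts on indole glucosinolates, and PEN3, a transporter, were chosen after their values were seen, and rose by 4.18 ± 0.13 and 4.00 ± 0.12 (adjusted p = 2.9e-10 and 2.1e-10).

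When EPFL6 was added under CHX, 1 of the 49 genes rose and 4 fell in limma, where 5.89% of all genes were called higher and 7.63% lower, so these counts lie near the background. The median was −0.15. MYC3 rose from 5019, 5176 and 4979 to 6002, 5946 and 6257, by 0.26 ± 0.05 (limma adjusted p = 0.010), and the 2 groups did not overlap. In this comparison the groups did not overlap for 16 of the 49 genes. The share over all genes was not computed, so nothing is read from that count. The MYC3 call was lost in the fit of these 2 groups alone (0.054). The genes that fell were the glucosyltransferase gene UGT74B1 (−0.87 ± 0.24), the epithiospecifier gene ESP (−1.0 ± 0.26), NIT2 (−0.78 ± 0.22) and the calmodulin-binding regulator gene IQD1 (−0.28 ± 0.08), with adjusted p from 0.029 to just under 0.05. These calls passed in 14, 17, 12 and 7 of 22 alternatives. The count of 5 fell to 1 without CHX replicate 3 or without CHX plus EPFL6 replicate 2 or 3, to 2 without mock replicate 1 or EPFL6 replicate 2, and to 3 without the second CHX replicate or EPFL6 replicate 1 or 3. For CHX plus EPFL6 against EPFL6, 21 rose and 17 fell, or 19 and 23 with library size alone as the scaling, where all genes gave 40.2% higher and 37.7% lower, or 23.1% and 62.2%. The interaction had 0 genes in limma and edgeR and 1 in DESeq2, with 6 at an unadjusted p under 0.05 in limma. Over all 23225 genes it had 349 in limma, 329 in edgeR and 1528 in DESeq2, with 4464 at an unadjusted p under 0.05 in limma.

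Aliphatic glucosinolates, the methionine-derived sister class, served as a comparison list of 21 genes, of which 19 were tested. This list too was drawn up with earlier results of these data known. MYB76 and AOP3 were too low. With EPFL6 alone 0 passed in limma, edgeR and DESeq2, and 0 had an unadjusted p under 0.05 in limma, beside 708 of all 23225 genes. With CHX 12 fell and 4 rose, with a median of −0.93, beside a median of 0.78 for the 49 genes above, and with library size alone as the scaling 15 fell and 1 rose. Over all genes 38.3% were called lower and 40.9% higher, or 62.3% and 24.3% with library size alone. The regulator gene MYB29 fell by 3.45 ± 0.21, CYP79F2, the counterpart of CYP79B2 for chain-elongated methionine, fell by 3.34 ± 0.18, CYP83A1 fell by 2.78 ± 0.16 and the transporter gene BAT5 fell by 2.58 ± 0.23 (limma adjusted p from 1.5e-08 to 1.4e-06). The side chain genes AOP2 (1.76 ± 0.27) and FMOGS-OX1 (1.26 ± 0.30) rose, the latter no longer with library size alone as the scaling (adjusted p = 0.13).

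Under CHX, 10 of the 19 aliphatic genes fell with EPFL6 and 0 rose, with a median of −0.88, where 7.63% of all genes were called lower and 5.89% higher. AOP2 went from 554, 723 and 867 to 325, 214 and 317, and its log2 fold change was −1.32 ± 0.27 (limma adjusted p = 0.013). FMOGS-OX1 fell by 1.30 ± 0.30, BAT5 fell by 1.25 ± 0.23 and the aminotransferase gene BCAT4 fell by 1.17 ± 0.27 (adjusted p = 0.020, 0.0094 and 0.020). The count of 10 became 3 without CHX replicate 3, 4 without CHX plus EPFL6 replicate 2 and 5 without CHX plus EPFL6 replicate 3. BAT5 passed in all 22 alternatives, AOP2 in 21 (lost without CHX replicate 3, 0.057), and FMOGS-OX1 and BCAT4 in 19 each. Those 2 were lost without CHX replicate 3 (0.083 and 0.084), CHX plus EPFL6 replicate 2 (0.072 and 0.070) or CHX plus EPFL6 replicate 3 (0.066 and 0.067). Against EPFL6 alone, both agents together left 14 lower and 0 higher, with a median of −2.42, beside 37.7% and 40.2% of all genes. No aliphatic gene passed for the interaction in limma or edgeR, 6 did in DESeq2, and 11 had an unadjusted p under 0.05 in limma. Of all 23225 genes, 349 passed in limma, 329 in edgeR and 1528 in DESeq2, and 4464 had an unadjusted p under 0.05 in limma. The contrast of CHX with mock and that of both agents with CHX share the CHX libraries, so their values for a gene are not independent.

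**Figure D4:**
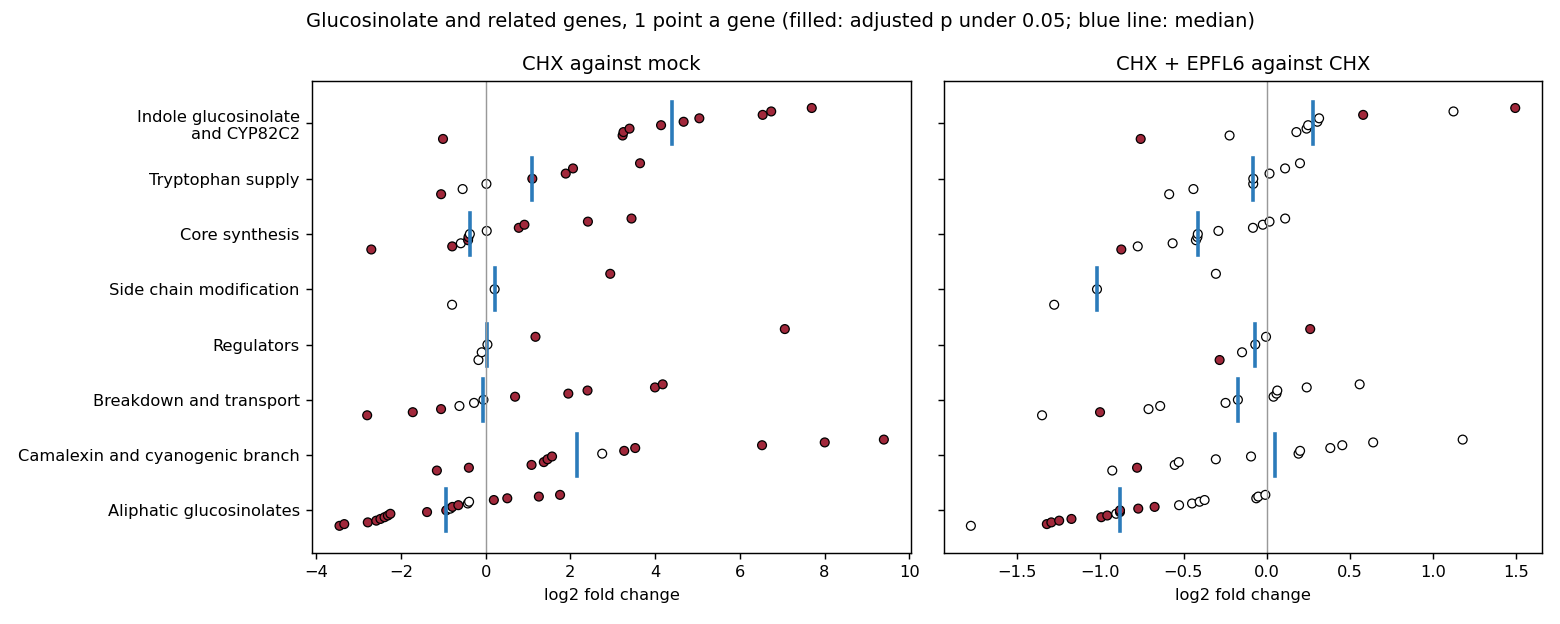
Log2 fold change (x axes, each with its own range) of every tested gene for CHX against mock (left) and for EPFL6 added to CHX (right), 1 point a gene, in rows by role. Filled points passed an adjusted p of 0.05 over all genes in limma, and blue lines are medians. For CHX against mock the aliphatic row has a median of −0.93, the 10 genes chosen with these values known stand in the top row with 4.41, and on the right the aliphatic row has a median of −0.88.

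Likeness of pattern over the 12 libraries was described by the Pearson correlation of log2 values, which CHX dominates. The genes most like CYP82C2 were AT1G08027, AT1G10880 and AT4G15610, at 0.97, 0.97 and 0.96, and 21 genes reached at least 0.95. AT1G08027 held a mean of 1.00 normalised reads in mock, 0 with EPFL6, 10.5 with CHX and 15.1 with both, and AT1G10880 held 2.99, 0.633, 24.2 and 25.8. AT4G15610 had the same order of groups at higher means of 2756, 2117, 4344 and 5533. For IGMT1 the closest were AT3G16280, AT5G44990 and AT1G26410, at 0.995 each, and 4414 genes reached 0.95. For CYP79B2 they were AT1G20310, TPPD (AT1G35910) and SAE2 (AT2G21470), and 4938 genes reached 0.95, so likeness to these 2 genes singles out little, and libraries share CHX treatment and depth.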

How the data were processed

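Poly(A) RNA-seq of 12 samples in 4 groups of 3 was analysed, grouped by the treatment in the labels. Per the submitters' processing notes, the authors used STAR 2.7.6a, featureCounts 2.0.0 and DESeq2 1.26.0 with TAIR10. Counting mode, strand and read length are not given in the sources used here. The authors deposited a read signal per gene in which each library is scaled by its own size factor. The values show this: multiplied by the factor, 100% lay within a relative 1e-06 of a whole number. The limma fit on the log2 scale was fixed for that unit, and edgeR and DESeq2 ran on the recovered reads as alternatives.

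The filter asked for 10 or more in 3 or more libraries and kept 23225 of 26702 genes. A single limma fit (version 3.58.1, R 4.3.3, trend and robust variances) to the log2 of the value plus a pseudocount of 1 took in all 12 libraries. Adjusted p is Benjamini-Hochberg over all genes, two-sided, threshold 0.05. Contrasts were the EPFL6 effect without and with CHX, the CHX effect without and with EPFL6, and the interaction. Depth was 40.2 to 106.6 M reads per library, and the number of libraries, 3 a group, limits precision. The 22 alternatives were 2 other scalings, 2 pseudocounts, 2 filters, fits of the compared groups only, a replicate block, each library left out, edgeR 4.0.16 and DESeq2 1.42.0. The scripts were tested on simulated data.

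The genes followed and the lists were chosen with earlier results of these data known. Named genes are those 10, up to 4 per direction of each other list and comparison with the largest change past the threshold, and paralogs or partners of the 10. Exceptions are marked. Symbols, coordinates and sequences are from RefSeq TAIR10.1, and levels per kilobase use the merged exons of all annotated transcripts of a gene. Libraries of a group differed beyond counting noise, so none was counted as a duplicate.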

Additional observations from a re-analysis of the deposited data

Results flagged for a closer look

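The EPFL6 change differed with and without CHX for 2 of the 10 genes, by the interaction term of the limma fit over all 23225 genes. For IGMT1 the EPFL6 change was −0.99 without CHX and 0.58 with it, a difference of 1.57 ± 0.20 (log2, SE; adjusted p = 0.0049), with the libraries of each pair of groups not overlapping. For CYP82C2 it was −3.36 without CHX and 1.5 with it, a difference of 4.86 ± 0.54 (adjusted p = 0.0023), with 0 reads in the 3 EPFL6 libraries. The −3.36 depends on the pseudocount and method, at −1.14 with a pseudocount of 8 and −6.41 in edgeR. The difference was 2.57 and 7.88 in these. The EPFL6 libraries at 0 add no spread to the SE, and CYP82C2 passed the filter only through libraries with CHX. Both genes were selected with results of these groups known, so these values describe them and are not independent evidence. The cause of the differences was not tested.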

How the results depend on the processing

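No value of the 10 genes changed sign among those past the threshold under any alternative run. Of the 10 genes, 1 passed for EPFL6 against mock, 0 with a pseudocount of 8, with the compared groups only, in edgeR or with the replicate block, 2 in DESeq2, and 0 to 1 with a library left out. For CHX plus EPFL6 against CHX 3 passed, and 0 to 4 with a library left out. Of the other pathway genes 5 passed in that comparison, 3 with library size alone, 2 with the compared groups only, 8 in DESeq2, and 1 to 7 with a library left out, and for the interaction 1 in DESeq2 in place of 0. Of the aliphatic genes 10 passed for CHX plus EPFL6 against CHX and 3 to 11 with a library left out, and for the interaction 6 in DESeq2, 1 with the replicate block and 0 to 1 with a library left out, in place of 0. The cause of these shifts was not tested, except that fewer libraries enter the fits of compared groups and with a library left out. In all, 293 counts stayed within 1.5 times and 34 did not. Of the single log2 fold changes of the 10 genes, 1055 moved by less than the SD between replicates and 35 by more, 19 of them under library size alone, which moved CHX contrasts by about the shift of all genes (−0.73 for CHX against mock). Over all genes, EPFL6 against mock gave 4 calls, 31 in DESeq2, 2 in edgeR, 0 with the compared groups only and 1 with the replicate block, and the interaction gave 349, 1528 in DESeq2, 187 with the replicate block and 86 to 975 with a library left out. Deviations of same-numbered libraries correlated from −0.18 to 0.42, with 0.28 and 0.42 for replicates 2 and 3 of EPFL6 and mock. Pairing by replicate number was thus neither uniform nor shown to be absent, and the replicate block is only an alternative. It moved the calls of the 10 genes for CHX plus EPFL6 against CHX from 3 to 4, and with it CYP82C2 did not pass for EPFL6 against mock (adjusted p = 0.096 in limma).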
